A study of Mus musculus with 12 samples.

Results

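The proteasome is the protease that degrades ubiquitin-tagged proteins, and its subunit genes were followed here through germinal centre (GC) B cells and plasmablasts (PB) of mice. Members were the rows of the gene count table whose Entrez gene ID belongs to a protein-coding mouse gene with a symbol of the Psma to Psmg series, leaving out Psmb8 and Psmb9. The rule found 48 of 27179 genes. Of these, 46 encode subunits, caps, assembly chaperones or an inhibitor, and 2 encode other proteins that carry a similar symbol: Psmc3ip, a recombination factor, and Psme3ip1, a partner of the Psme3 cap. The table held 0 of 6 annotated pseudogenes of the series.

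The libraries were 12 in 6 groups of 2, each prepared from the polyA RNA of 2 to 8 pooled C57BL/6 mice, and a pool is a replicate (n = 2 throughout). All mice had been immunised with NP-KLH in alum. In the Myb experiment, control mice were Myb fl/fl with no cre and knockout mice were Myb fl/fl CD23-cre T/+. Their GC B cells were sorted on day 12, and their PB on day 5 after a second dose of NP-KLH in PBS. In the Moz experiment, control mice were AID-cre T/+ and knockout mice were Moz fl/fl AID-cre T/+, and GC B cells were sorted on day 7. CD23-cre acts in mature B cells and AID-cre in activated B cells, as known for these drivers. Both Myb genotypes carried the floxed alleles, and cre was present only in the knockouts, so loss of Myb and presence of cre cannot be told apart. The 6 plasmablast markers were all higher, and the 6 GC markers all lower, in PB than in GC B cells of both genotypes. Libraries held 8285934 to 24801297 counts, of which immunoglobulin genes took 65.0% to 70.0% in PB, 1.59% to 3.03% in Myb GC pools and 6.06% to 9.16% in Moz GC pools. Levels are library-size-scaled counts (CPM) after TMM scaling, which sets libraries to a common level over most genes, and RPKM where the CPM was further divided by gene length in kilobases.

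In the core particle, rings of alpha subunits (Psma genes) frame rings of beta subunits (Psmb genes) that hold the active sites. The regulatory particle sits on the core: a base with ATPases (Psmc genes) unfolds substrates, and a lid with the deubiquitinase Psmd14 removes ubiquitin. Psme caps are alternative activators that open the core without the regulatory particle. When proteasome capacity falls, the transcription factor Nfe2l1 is known to leave the endoplasmic reticulum with the help of Vcp, Ngly1 and Ddi2 and to activate subunit genes through antioxidant response elements. Antibody-secreting cells are known for a heavy load of secretory proteins and for their sensitivity to proteasome inhibitors.

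Promoter windows from RefSeq (GRCm38.p6, the assembly also called mm10) were matched for 40 of the 48 members, and the 44 windows cover 250 bases before to 50 bases after the annotated start. For the 38 genes with a subunit, cap or helper role, 41 windows were searched on both strands. The antioxidant response element core TGACNNNGC was in 6 of them (14.6%), beside 12.4% of all 32851 windows and 14.5% of the windows of genes that passed the low-count filter. The ETS core CCGGAAG was in 15 (36.6%), beside 8.86% of all windows and 18.0% of those of tested genes. CCAAT was in 31.7%, beside 37.4% of all windows, and the unfolded protein response element core TGACGTGG was in 0 of 41, beside 0.676% of all windows. A match is a stretch of letters and not a measured binding site. Below are the 250 bases before the start of 3 genes with the antioxidant response element core on the sense strand, among them the catalytic Psmb5 and Psmb6, and of Psme4, the member that was higher in PB. Capitals mark the antioxidant response element core in the first 3 and the ETS core in Psme4. The window of Psme4 also holds an antioxidant response element core across the start, not printed, and it does not overlap the ETS core.
Psmb5, chr14:54617996-54618245, minus strand: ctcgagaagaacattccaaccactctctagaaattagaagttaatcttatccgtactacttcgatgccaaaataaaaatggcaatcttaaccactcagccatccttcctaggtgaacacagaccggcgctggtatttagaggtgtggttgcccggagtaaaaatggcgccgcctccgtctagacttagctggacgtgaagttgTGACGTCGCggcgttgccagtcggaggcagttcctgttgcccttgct
Psmb6, chr11:70525107-70525356, plus strand: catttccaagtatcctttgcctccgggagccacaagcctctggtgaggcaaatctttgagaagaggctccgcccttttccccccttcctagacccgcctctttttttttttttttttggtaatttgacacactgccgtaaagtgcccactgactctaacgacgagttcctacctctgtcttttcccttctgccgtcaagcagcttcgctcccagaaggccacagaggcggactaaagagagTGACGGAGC
Psmd9, chr5:123227940-123228189, plus strand: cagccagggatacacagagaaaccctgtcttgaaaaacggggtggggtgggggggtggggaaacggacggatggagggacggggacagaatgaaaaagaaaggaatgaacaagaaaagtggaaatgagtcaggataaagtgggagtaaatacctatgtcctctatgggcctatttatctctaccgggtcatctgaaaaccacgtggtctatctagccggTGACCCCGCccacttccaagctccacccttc
Psme4, chr11:30771525-30771774, plus strand: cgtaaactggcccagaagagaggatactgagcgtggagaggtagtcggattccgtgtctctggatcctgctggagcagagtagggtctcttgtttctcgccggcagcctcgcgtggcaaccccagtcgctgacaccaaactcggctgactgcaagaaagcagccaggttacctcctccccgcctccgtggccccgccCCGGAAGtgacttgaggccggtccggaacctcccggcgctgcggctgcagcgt
Counted from the start site, with -1 the base before it, the marked element begins at -47 in Psmb5, at -9 in Psmb6, at -31 in Psmd9 and at -53 in Psme4.

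Transcripts of core subunits held the top of the order in every group. In control GC B cells, Psmb4 was at 280 RPKM ± 68.0 (SD), Psmb1 at 244 ± 75.7 and Psma7 at 227 ± 54.1, and these 3 held the first 3 places in all 6 groups. In control GC B cells their ranges over the pools overlapped, so these neighbours did not differ beyond their spread. The median of the 44 detected subunit and helper genes was 62.9 RPKM in control GC B cells and 53.2 in control PB. Base ATPases lay closer together than core subunits: in control GC B cells the highest over the lowest was 2.77-fold for the 6 Psmc genes, 5.41-fold for the 8 beta ring genes and 22.8-fold for the 7 Psma genes. The last value is set by Psma3, whose level is uncertain. The lowest beta ring genes, Psmb5 at 51.7 RPKM and Psmb3 at 55.4, are uncertain too, and the next one up was Psmb10 at 102. The wider spread of the core thus rests in part on genes of uncertain level. Assembly chaperones of the core were low, with a median of 26.8 RPKM in control GC B cells.

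The low end of the core holds genes with near-identical copies elsewhere. Psma3 was at 9.95 RPKM ± 2.70 and Psma5 at 17.7 ± 4.97 in control GC B cells, far below the other Psma genes, although every alpha subunit is present in equal number in the ring. Of the 50-base stretches in the longest coding transcript, 55.4% of those of Psma5, 22.0% of Psma3, 57.1% of Psmb5, 55.8% of Psmb3 and 59.3% of Psme2 also occur in other genes. The sources used here do not say how reads that match several genes were counted, so the levels of these 5 genes are uncertain. The same holds for Psma4 (31.5%), the catalytic Psmb7 (28.1%), Psmc3ip (27.1%), Psmd2 (26.4%) and Psmg3 (22.7%), and to a lesser degree for Psmd11, Psmc1, Psmd13 and Psme1 (14.1% to 18.9%). Changes of these genes between groups carry the same uncertainty.

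Tissue-restricted members were near zero. Psmb11, the catalytic subunit of the thymic cortical epithelium, had 1 count in all 12 libraries together. Psma8, the alpha subunit of the testis, had 26 counts in all, with 3 to 9 in each Moz GC pool. Both failed the low-count filter, so 46 of 48 members were tested.

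**Figure D1:**
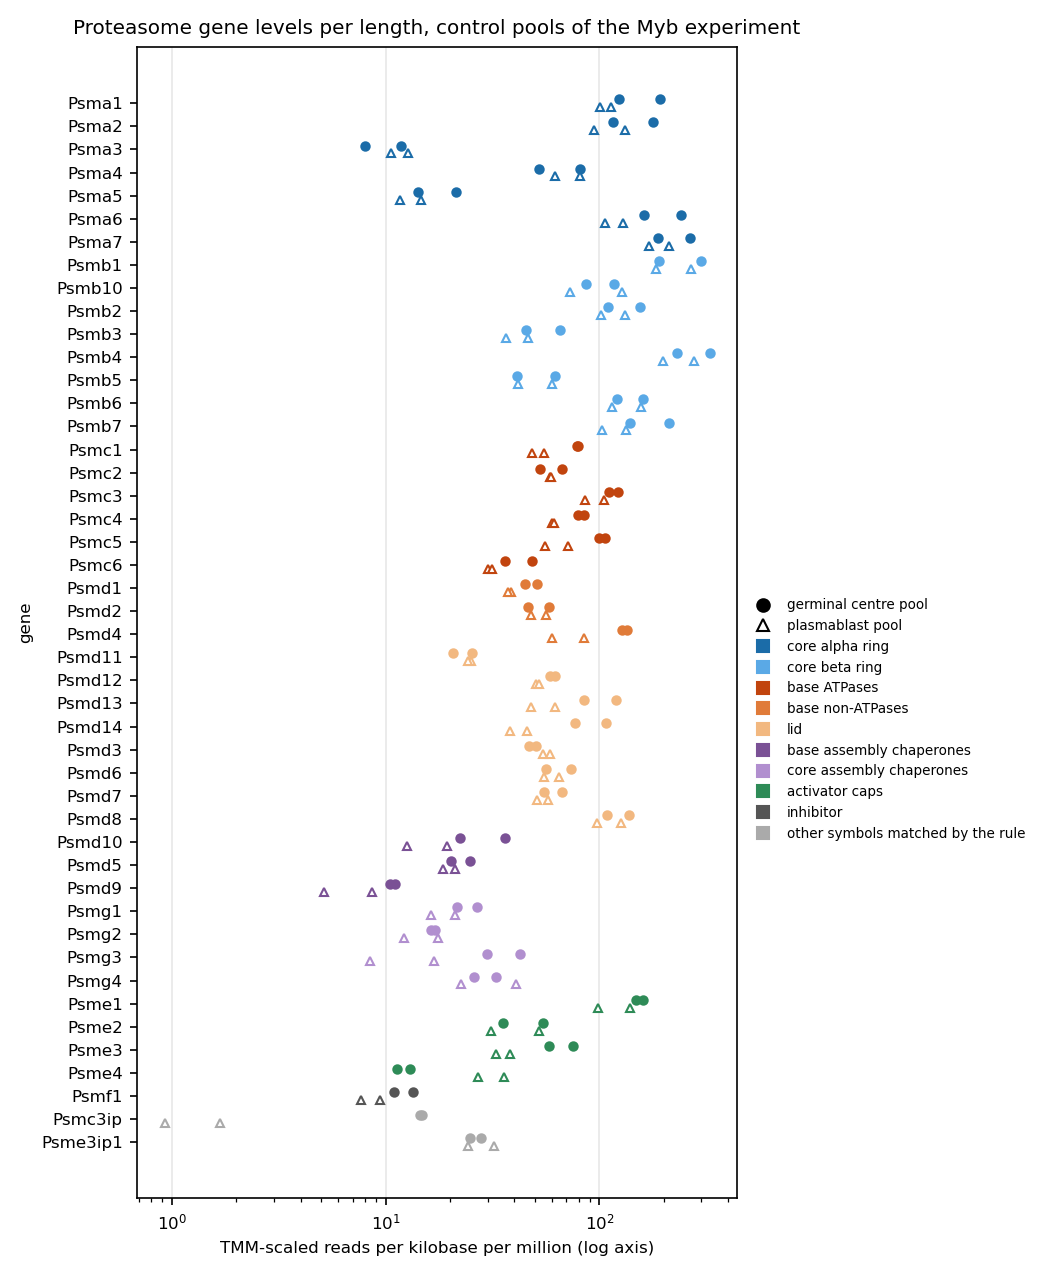
Levels per length of the 46 tested members in control GC pools (filled circles) and control PB pools (open triangles) of the Myb experiment, on a log axis of TMM-scaled RPKM, with colours for the role. Core subunits reach the highest values, Psma3 and Psma5 lie apart from their ring, and Psmc3ip shows the widest separation between the cell types.

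Plasmablasts were compared with GC B cells within each genotype. In controls, 11 of the 46 tested members passed (adjusted p under 0.05), 1 higher and 10 lower in PB, which is 23.9% of the members, beside 53.2% of all 13131 genes tested (25% higher and 28.1% lower). The higher one was Psme4, and the lower ones were Psmc3ip, Psmg3, Psmd14, Psme3, Psmd13, Psmd10, Psmd4, Psma6, Psmc5 and Psmc1. The median member was at -0.27 on the log2 scale, with all genes at -0.17. In Myb knockouts, again 11 passed, 1 higher and 10 lower, beside 51.6% of all genes (24.4% higher and 27.2% lower), and the median member was at -0.33 with all genes at -0.17. The PB and GC pools did not overlap for 2 members on the higher and 21 on the lower side in each genotype, beside 34.4% and 41.3% of all genes in controls and 32.9% and 41% in knockouts. Of the 10 lower members, 8 were shared by the genotypes (80.0% of each list), as was Psme4. Psmd10 and Psmd4 passed in controls alone and Psmd1 and Psmd9 in knockouts alone, but the test of the difference between genotypes called 0 members. The 2 genotypes use separate libraries, but day, boost and date of sort differ between PB and GC B cells together with the cell type and cannot be told apart from it. In bulk RNA, fewer cells of a type and less RNA per cell cannot be told apart either.

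The nuclear activator caps moved in opposite directions. Psme4, a large cap linked to acetylated histones, was at 73.0 and 83.5 CPM in GC pools of the controls and 230 and 175 CPM in the control PB pools. In knockouts it was at 76.3 and 77.0 CPM in GC and 197 and 154 CPM in PB. Every PB pool lay above every GC pool of the Myb experiment, by a log2 fold change of 1.37 (SE 0.28, adjusted p = 0.00138) in controls and 1.19 (SE 0.28, adjusted p = 0.00346) in knockouts. Psme3, a cap for degradation that needs no ubiquitin, was at 153 and 197 CPM in control GC pools and 99.96 and 85.7 CPM in control PB pools. Its log2 fold change was -0.91 (SE 0.21, adjusted p = 0.00292), and -0.88 (SE 0.21, adjusted p = 0.00387) in knockouts, again with no overlap. Psme4 as a share of Psme3 plus Psme4, on reads per kilobase, was therefore 15.5% ± 1.13 (SD) in control GC B cells and 46.8% ± 2.16 in control PB. This share was chosen after the values were seen and is given as a description. It does not depend on the scaling between libraries. The interferon-inducible caps Psme1 and Psme2 did not pass: Psme1 had a log2 fold change of -0.37 (SE 0.26, adjusted p = 0.247) and Psme2 one of -0.11 (SE 0.32, adjusted p = 0.787) in controls.

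In the lid, Psmd14, the deubiquitinase that cleaves the ubiquitin chain from the substrate, was at 119 and 166 CPM in control GC pools and 58.6 and 70.7 CPM in control PB pools. In knockouts it was at 125 and 186 CPM in GC and 58.8 and 77.6 CPM in PB, so no PB pool reached any GC pool. The log2 fold change was -1.14 (SE 0.27, adjusted p = 0.00347) in controls and -1.19 (SE 0.27, adjusted p = 0.00283) in knockouts. Of the 8 lid genes, Psmd13 was the other that passed, at -0.89 (SE 0.30, adjusted p = 0.0247) in controls and -0.95 (SE 0.30, adjusted p = 0.019) in knockouts. The other 6 ranged up to 0.22 for Psmd3, which did not pass (adjusted p = 0.355). The lid holds these subunits in equal number, but their transcripts did not move by equal amounts: relative to the mean of the lid genes on reads per kilobase, Psmd14 stood at 128% ± 9.89 in control GC B cells and 73.5% ± 1.55 in control PB, a ratio also chosen after the values were seen.

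In the base, all 6 ATPase genes had estimates below 0 in both genotypes, and the same 2 passed. Psmc5 was at 127 and 136 CPM in control GC pools and 71.3 and 91.0 CPM in control PB pools, a log2 fold change of -0.70 (SE 0.23, adjusted p = 0.0242), and of -0.95 (SE 0.23, adjusted p = 0.00514) in knockouts. Psmc1 was at 119 and 119 CPM in control GC pools and 73.0 and 83.1 CPM in control PB pools, a log2 fold change of -0.60 (SE 0.20, adjusted p = 0.0225). Psmc2 had the estimate nearest to 0, at -0.01 in controls. Psmd4, a ubiquitin receptor of the base, was at 160 and 168 CPM in control GC and 75.5 and 106 CPM in control PB pools. Psmd4 passed in controls (log2 fold change -0.86, SE 0.24, adjusted p = 0.0104) and narrowly failed in knockouts (-0.61, SE 0.24, adjusted p = 0.0501). Psmd1, the scaffold of the base, passed in knockouts at -0.51 (SE 0.19, adjusted p = 0.0383). Among chaperones that assemble the base, Psmd10 was at 32.5 and 52.7 CPM in control GC and 18.4 and 28.1 CPM in control PB pools (log2 fold change -0.88, SE 0.30, adjusted p = 0.0277).

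Few genes of the core particle passed. In the alpha ring, 1 of 7 tested genes passed in each genotype: Psma6, at 160 and 240 CPM in control GC and 106 and 129 CPM in control PB pools, a log2 fold change of -0.77 (SE 0.27, adjusted p = 0.031). In the beta ring 0 of 8 passed in either genotype, and their median was -0.15 in controls and -0.22 in knockouts. The chymotrypsin-like Psmb5 and the caspase-like Psmb6 had log2 fold changes of -0.02 (SE 0.35) and -0.05 (SE 0.28) in controls. The trypsin-like Psmb7 was at 135 and 205 CPM in control GC and 100.1 and 129 CPM in control PB pools, with no overlap, but did not pass (-0.57, SE 0.29, adjusted p = 0.115). Psmg3, a chaperone of the alpha ring, was the subunit helper with the lowest estimate: 25.01 and 35.7 CPM in control GC and 7.10 and 14.1 CPM in control PB pools, a log2 fold change of -1.54 (SE 0.37, adjusted p = 0.00406). Of its 50-base stretches 22.7% also occur in 1 other gene. The other 3 Psmg genes did not pass. The inhibitor Psmf1 had a log2 fold change of -0.51 (SE 0.21, adjusted p = 0.0543) in controls and -0.37 (adjusted p = 0.149) in knockouts.

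Psmb10 replaces Psmb7 in the immunoproteasome, so their ratio gives the immune form of this active site at the transcript level. The share rests on a Psmb7 level that is uncertain, since 28.1% of the Psmb7 stretches occur in 1 other gene, while no stretch of Psmb10 does. Psmb10 made up 38.4% and 35.5% of the 2 transcripts, on reads per kilobase, in control GC pools 1 and 2, and 41.4% and 48.9% in control PB pools. In knockouts it made up 38.5% and 36.2% in GC and 42.6% and 49.4% in PB. All 4 PB pools lay above all 4 GC pools, by 8.45 percentage points, with p = 0.0556 in a two-sided exact permutation test within genotype, the smallest p that its 36 arrangements allow. In Moz pools the share was 31.4% to 33.9%, below the GC pools of the Myb experiment, which were sorted on another day and date. Psmb10 itself was level between the cell types, at a log2 fold change of -0.02 (SE 0.34, adjusted p = 0.958) in controls. Set against the mean of all constitutive beta genes, Psmb10 stood 6.66 points higher in PB, with overlapping pools (exact permutation p = 0.333).

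**Figure D2:**
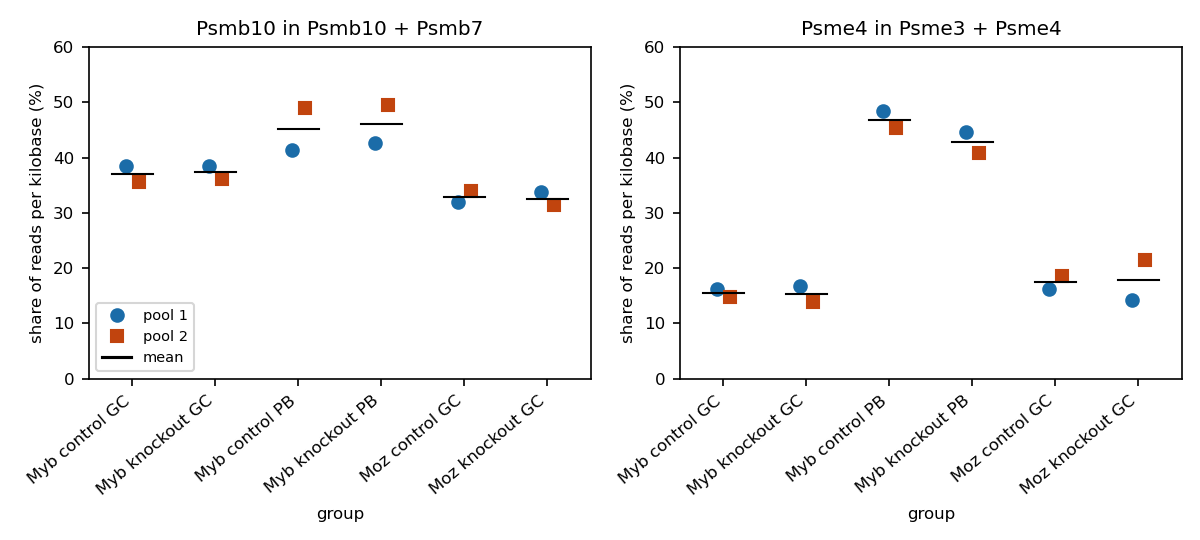
Shares within a library, in percent of reads per kilobase, for Psmb10 in Psmb10 plus Psmb7 (left) and Psme4 in Psme3 plus Psme4 (right), with 1 point per pool (circle pool 1, square pool 2) and a line at the mean of each group. The Psme4 share is 40.9% to 48.4% in the 4 PB pools and 13.9% to 21.4% in the 8 GC pools.

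Psmc3ip, which is no subunit but serves homologous recombination, had the lowest estimate of all members. It was at 14.3 and 14.0 CPM in control GC pools and 0.898 and 1.63 CPM in control PB pools, where 10 and 13 counts were recorded. The log2 fold change was -3.53 (SE 0.31, adjusted p = 2.18e-06) in controls and -2.93 (SE 0.28, adjusted p = 6.01e-06) in knockouts. Of the Psmc3ip 50-base stretches 27.1% also occur in 1 other gene.

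**Figure D3:**
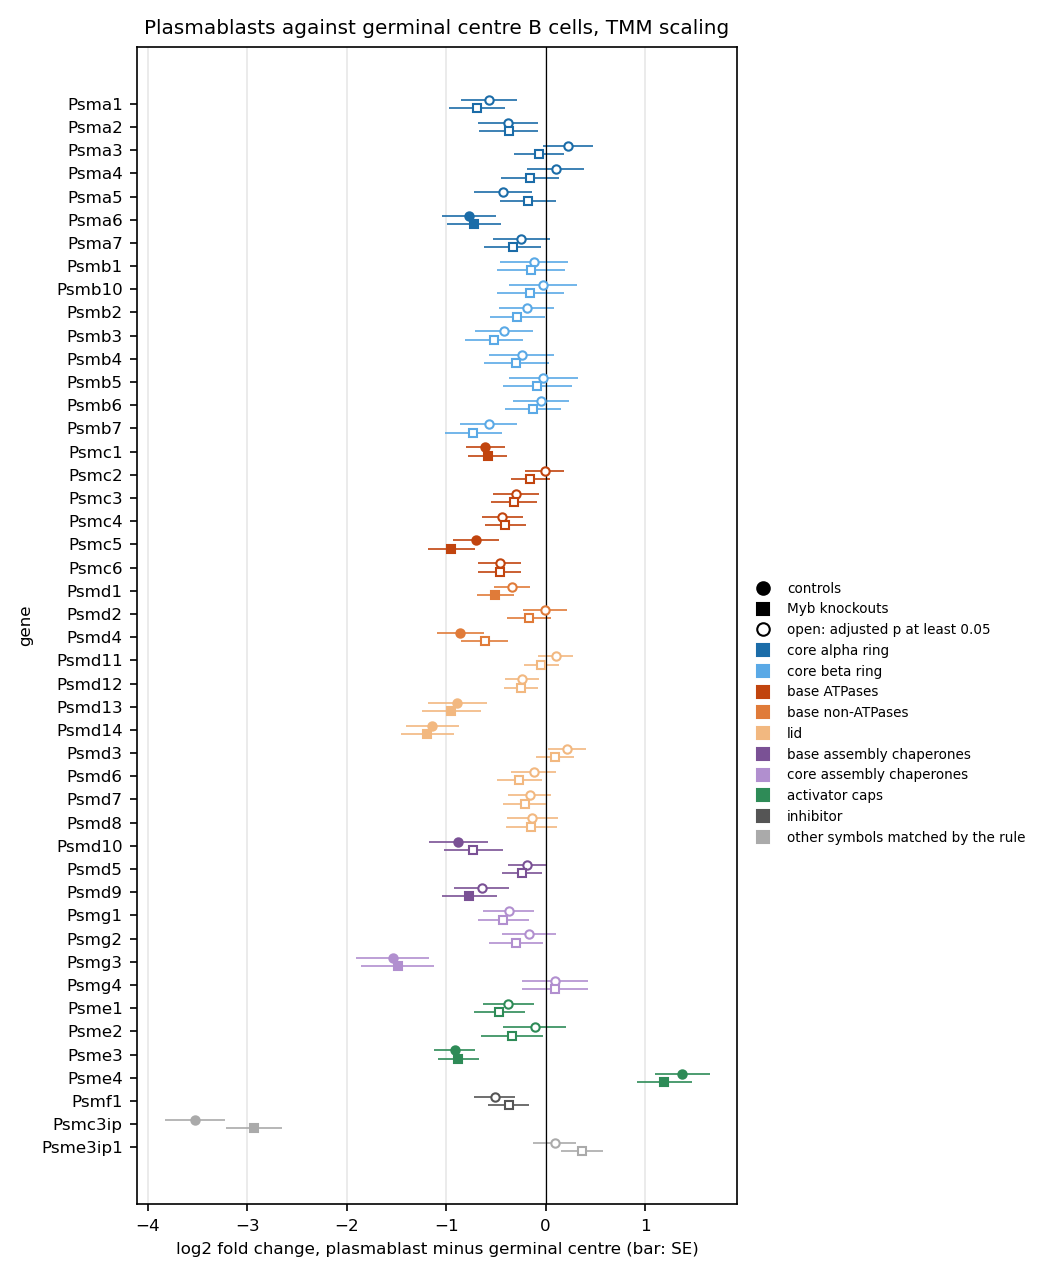
Log2 fold change with SE of PB over GC B cells for the 46 tested members, in controls (circles) and Myb knockouts (squares), filled where the adjusted p was under 0.05. Beta ring genes have medians of -0.15 in controls and -0.22 in knockouts, with Psmb7 lowest at -0.57 and -0.73. Psme4 lies to the right at 1.37 and 1.19, and Psmd14, Psme3, Psmg3 and Psmc3ip lie to the left in both genotypes.

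Psmd14, Psme3 and Psmc3ip passed in all 12 alternatives run in each genotype. Other members passed in fewer. In controls Psma6, Psmc1 and Psmc5 passed in 8 of 12 each, and the others in 10 or 11. In knockouts Psmd1 passed in 5, Psma6 and Psmd9 in 6 and Psmc1 in 7, and the others in 10 or 11. Psme4 passed in 11 of 12 and turned to -0.49 in controls and -0.86 in knockouts when libraries were divided by the total count alone, a scale on which the median of all genes moved to -2.04 and -2.21 and 45 and 46 members were lower. Relative to that median Psme4 stayed higher. The counts that follow are of members alone, without the calls over all genes beside them, so a fall need not be particular to the members. Without control PB pool 1 the count in controls fell to 4, and without knockout PB pool 1 the count in knockouts fell to 4. Without GC pool 2 it was 6 in each genotype.

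Summed markers of other cells overlapped between PB and GC pools, while the proliferation gene Mki67 was lower in every PB pool. The myeloid sum was nonetheless higher in each PB pool than in the same-numbered GC pool of its genotype. The summed level of 7 myeloid markers was 19.96 to 65.0 CPM in the 4 PB pools and 6.09 to 36.8 CPM in the 4 GC pools of the Myb experiment. Of the 6 tested, 4 had estimates above 0 and 2 below in controls, with a median of 0.81, and the macrophage genes Csf1r (log2 fold change 2.70, adjusted p = 0.0161) and Adgre1 (2.37, adjusted p = 0.0287) passed. In knockouts 3 were above and 3 below 0, with a median of -0.06, and Csf1r alone passed (2.51, adjusted p = 0.0229). The 7 T cell markers summed to 5.03 to 8.69 CPM in PB and 4.68 to 9.33 CPM in GC pools. Of the 6 tested, 2 had estimates above 0 and 4 below in each genotype, with medians of -0.09 in controls and -0.43 in knockouts. Cd4 passed in controls (1.06, adjusted p = 0.0434), higher in PB. Cd8b1 passed in knockouts (2.29, adjusted p = 0.00982), also higher in PB, with 1.92 (adjusted p = 0.0512) in controls. The 4 natural killer cell markers summed to 0.908 to 3.05 CPM in PB and 0.699 to 2.49 CPM in GC pools. Of the 3 tested, 1 had an estimate above 0 and 2 below in each genotype, with medians of -0.11 in controls and -0.89 in knockouts. Prf1 was the 1 above 0, and it passed in controls (2.67, adjusted p = 0.00191), with 0.03 in knockouts. Cd14 was at 0 in 1 GC pool of the Myb experiment, and the T cell gene Cd8a was at 0 in 3 of the 4 PB pools. The proliferation gene Mki67 was at 162 to 229 CPM in PB and 341 to 957 CPM in GC pools. Their part in the differences of the members was not tested.

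The summed level of all members also depends on what it is set against. In TMM-scaled CPM it was 4892 ± 871 (SD) in control GC B cells and 3997 ± 519 in control PB. Over both genotypes the log2 ratio of PB to GC was -0.32 (exact permutation p = 0.222), and PB and GC pools overlapped. As a share of all counts the members took 0.759% in control GC B cells and 0.168% in control PB. With immunoglobulin genes left out the shares were 0.772% and 0.506%.

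Genes that feed or regulate the proteasome were taken from a list of which 34 were in the table and 33 were tested. In control PB 8 of 33 were higher and 4 lower, beside 25% and 28.1% of all genes, with a median of 0.25. In knockout PB 6 were higher and 5 lower, beside 24.4% and 27.2% of all genes, with a median of 0.22. The share of higher genes in the list was thus no larger than that among all genes. The genes that mature the factor Nfe2l1 were among the higher ones. Nfe2l1 was at 54.4 and 48.0 CPM in control GC pools and 175 and 161 CPM in control PB pools, a log2 fold change of 1.72 (SE 0.20, adjusted p = 2.65e-05), and 1.97 (adjusted p = 1.06e-05) in knockouts. Ngly1, the glycanase that acts on it, had a log2 fold change of 1.54 (adjusted p = 2.09e-05), the protease Ddi2 one of 1.79 (adjusted p = 0.0156), and the segregase Vcp one of 1.28 (adjusted p = 0.00158) in controls. In knockouts Ddi2 did not pass (1.13, adjusted p = 0.0951). The related Nfe2l2 did not pass in either (0.31, adjusted p = 0.135 in controls). The Vcp cofactors Ufd1 and Nploc4, the shuttle Ubqln2 and the peptide transporter Tap2 were the other higher genes in controls. The lower genes included the core maturation factor Pomp (171 CPM in control GC and 81.1 CPM in control PB, log2 fold change -1.08, adjusted p = 0.0172) and the proteasome-bound deubiquitinases Uchl5 (-1.42, adjusted p = 0.00132) and Usp14 (-1.27, adjusted p = 0.000826). All 15 genes of a list for endoplasmic reticulum-associated degradation, which hands secretory proteins to the proteasome, were higher in PB of both genotypes, with a median of 2.51 in controls. Derl3, a channel component, went from 26.4 to 1116 CPM and Sel1l, a ligase adaptor, from 85.1 to 1722 CPM in controls.

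Loss of Myb was tested in each cell type. In GC B cells, 0 of 46 members passed, beside 0.259% of all genes. No member had an unadjusted p under 0.05 when the pools were not paired by date, beside 755 of the 13131 genes. DESeq2 and limma-voom also called 0 members. Estimates were above 0 for 39 members, with a median of 0.10 and all genes at 0.00, and the largest was 0.41 (SE 0.25, adjusted p = 1) for Psma3, at 11.5 and 17.01 CPM in controls and 15.1 and 22.7 CPM in knockouts. Knockout and control pools did not overlap, on the higher side, for 4 members (Psmc3ip, Psmd3, Psme1 and Psmc1), beside 13.8% of all genes. Within the same-numbered pairs, made on one date, the median of the members was 0.06 in pair 1. There 33 members were higher and 13 lower in the knockout, beside 47.5% of all genes higher. The median was 0.15 in pair 2, with 40 members higher and 6 lower, beside 51.3% of all genes higher. The sign of the median turned to -0.08 without control pool 1 and to -0.17 without knockout pool 2. Leaving out a pool breaks a pair, and most members were higher in pool 2 than in pool 1 of both groups. Of the 6 plasmablast markers, 5 had estimates above 0 and 1 below in GC B cells, with a median of 0.60, and 1 passed. They summed to 924 and 1474 CPM in control pools and 1310 and 1841 CPM in knockout pools. Of the 6 GC markers, 1 was above 0 and 5 below, with a median of -0.19. The part of these markers in the members' estimates was not tested. In PB, 0 of 46 passed, beside 0.0381% of all genes. At an unadjusted p under 0.05 there was 1, beside 496 of the 13131 genes. It was Psmc3ip (0.87, SE 0.36, adjusted p = 1), which rests on 10 to 21 counts a library. The other 2 tools called 0. The median was 0.05, and pools did not overlap, on the higher side, for 4 members, beside 13.6% of all genes. The difference of the Myb effects between PB and GC B cells was tested too: 0 of 46 members passed, beside 0.00762% of all genes. With an unadjusted p under 0.05 there were 0 members, beside 489 of the 13131 genes, and DESeq2 and limma-voom called 0. The pathway list had 0 calls in each of these comparisons. With the experiment date as a block, which the labels give for same-numbered knockout and control pools, the peptide transporter Tap1 was higher in Myb knockout GC B cells (214 CPM in controls, 306 CPM in knockouts, log2 fold change 0.52, SE 0.12, adjusted p = 0.0482; adjusted p = 0.546 without the block). That is 1 of 33 genes of the list, beside 2.42% of all genes called with this block. With the block 0 members passed, and 2 of 46 had an unadjusted p under 0.05 in GC B cells, beside 1532 of the 13131 genes. In PB 2 of 46 did, beside 1226 genes.

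Loss of Moz gave no member that passed: 0 of 46 members, beside 0% of all genes. Without the experiment date as a block, 0 had an unadjusted p under 0.05, beside 315 of the 13131 genes, and DESeq2 and limma-voom called 0. With the block 0 of 46 passed, beside 0.297% of all genes. At an unadjusted p under 0.05 there were then 5, beside 1339 of the 13131 genes. Without the block, estimates were nonetheless below 0 for 45 of 46 members, with a median of -0.19 and all genes at -0.01. With the block they were below 0 for 46 of 46. The 6 markers of the plasmablast state all had estimates above 0, with a median of 0.52 and 0 that passed. They summed to 4589 and 4835 CPM in control pools and 5965 and 7128 CPM in knockout pools, without overlap. The 6 GC markers all had estimates below 0, with a median of -0.32 and 0 that passed. On log2 of CPM plus 0.5, the shortest quartile of genes had a median of -0.09 and the longest one of 0.04. The Spearman rho between length and this difference was 0.405 among the members and 0.199 over all genes. The part of these markers and of gene length in the members' estimates was not tested. Pools did not overlap, on the lower side, for 11 members, beside 13.4% of all genes. The pairs of pools made on one date differed. In pair 1, 28 members were higher and 18 lower in the knockout, with a median of 0.02, beside 49.5% of all genes higher. In pair 2, 1 was higher and 45 lower, with a median of -0.42. Psma7, an alpha ring gene, had the lowest estimate (-0.37, SE 0.29, adjusted p = 1). It was at 178 and 253 CPM in control pools and 181 and 154 CPM in knockout pools, so that control pool 2 stood above the other 3. Without control pool 2 the median was -8.3e-05, and without knockout pool 2 it was -0.10, and each of these breaks a pair. Standard errors of the members were 0.17 to 0.34 here, so differences of the size of the median are not detectable for single genes with 2 pools.

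**Figure D4:**
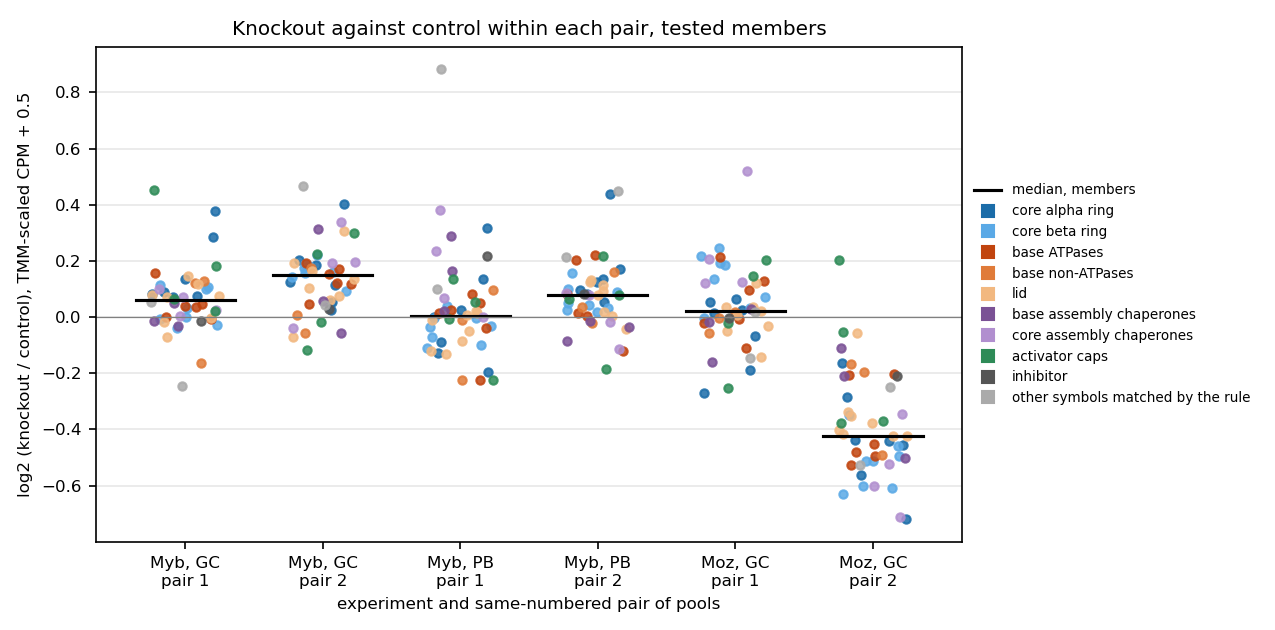
Log2 ratio of knockout to control for the 46 tested members within each same-numbered pair of pools, with a line at the median of the members. The second Moz pair lies at a median of -0.42, and the other 5 pairs lie between 0.00 and 0.15.

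The control GC B cells of the experiments (Moz on day 7 against Myb on day 12) were compared too: 0 of 46 members passed, beside 1.38% of all genes. An unadjusted p under 0.05 was found for 0 members, beside 1021 of the 13131 genes, and DESeq2 and limma-voom called 0. The median member was at 0.11, with all genes at 0.02. The 6 plasmablast markers all had estimates above 0, with a median of 1.92, and 4 passed, higher on day 7. Of the 6 GC markers, 2 were above 0 and 4 below, with a median of -0.14 and 0 that passed. Day, cre and experiment date differ together and cannot be told apart.

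Within groups, the members rose and fell together from pool to pool. In 5 of the 6 groups nearly all members were higher in pool 2 than in pool 1: 43 of 46 in Myb control GC B cells, 46 in Myb knockout GC B cells, 41 in Myb control PB, 42 in Myb knockout PB and 44 in Moz control GC B cells. Their medians were 0.31 to 0.43 on the log2 scale, while the median of all tested genes was 0.01 to 0.04. Of all tested genes, 50.4% to 54.4% were higher in pool 2 in these 5 groups. In Moz knockout GC B cells the pattern was the other way, with 15 of 46 higher in pool 2 and a median of -0.13, beside 49.4% of all genes higher. Core particle genes showed wider gaps than those of the regulatory particle. In Myb control GC B cells their median was 0.57 beside 0.27, in Myb knockout GC B cells 0.58 beside 0.23, and in Moz control GC B cells 0.39 beside 0.31. The gap was not particular to the core. Core assembly chaperones had wider ones in control PB (0.68 beside 0.37 for the core), knockout PB (0.51 beside 0.50) and Moz knockout GC B cells (-0.49 beside -0.15), and narrower ones in the other groups. Psmb1, a beta ring gene, was at 198 and 308 CPM in the pools of Myb control GC B cells and at 196 and 329 CPM in Myb knockout GC B cells. These values are a description of pools, since each pool is 1 library.

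Other measures moved with the pools. Gene length did: the Spearman rho across genes between length and the difference of the pools was -0.22 to -0.50 in the 5 groups and 0.33 in Moz knockout GC B cells, and 32 of the 46 tested members are among the shortest genes (the lowest quartile of length, up to 1574 bases). The median of those genes was 0.17 to 0.38 in the 5 groups and -0.18 in Moz knockout GC B cells. The proliferation gene Mki67 was at 957 and 341 CPM in pools 1 and 2 of Myb control GC B cells, and at 645 and 868 CPM in Moz control GC B cells. The summed level of 7 myeloid marker genes was 28.6 and 7.66 CPM in Myb control GC B cells, 36.8 and 6.09 in Myb knockout GC B cells, 65.0 and 19.96 in Myb control PB and 53.2 and 20.7 in Myb knockout PB. In Moz control GC B cells it was 9.34 and 17.97, the other direction. Their part in the difference between pools was not tested.

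**Figure D5:**
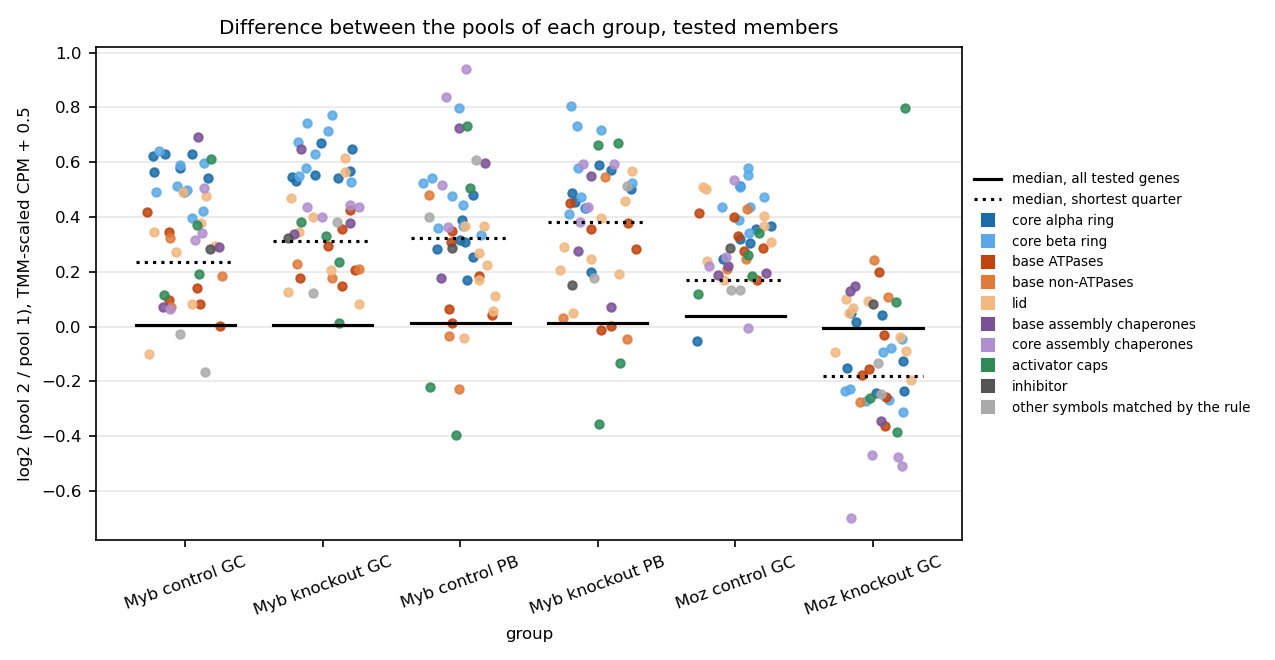
Log2 ratio of pool 2 to pool 1 for the 46 tested members in each group, with a solid line at the median of all tested genes and a dotted line at the median of the shortest genes (up to 1574 bases). The members' medians are 0.31 to 0.43 in 5 groups and -0.13 in Moz knockout GC B cells, where that of the shortest genes is -0.18.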

How the data were processed

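The authors deposited raw gene counts for 27179 Entrez genes. Per the submitters' processing notes, featureCounts made them on mm10. The sources used here do not give the aligner, the strand setting or versions. The 12 single-library tables equalled the series table. A RefSeq table of the same assembly named 25275 IDs. One edgeR 4.0.16 quasi-likelihood model (R 4.3.3, robust) held 6 group means with TMM scaling. The filter (filterByExpr, minimum count 10, total 15) kept 13131 genes. Tests were two-sided, with Benjamini-Hochberg adjustment over all tested genes of a comparison at 0.05. The biological coefficient of variation was 0.221.

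Same-numbered knockout and control pools share experiment dates per the labels, and the pairing rests on these labels. Their deviations correlated at 0.600, 0.453 and 0.361. Same-numbered control GC pools of the Myb and Moz experiments, which are not pairs, correlated at 0.382, so the correlations do not show pairing. Labels do not say that pools of a group are independent beyond separate mice and dates. Pool differences are log2 of CPM plus 0.5. Alternatives used DESeq2 1.42.0 and limma 3.58.1, other scalings and filters, and pools left out. The fit was tested on simulated data.

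Members and lists were chosen with earlier results of these data known. Of the genes counted in the list that feeds or regulates the proteasome, 1 is not reported here. Named genes are called members, the highest and lowest estimate of each role and a fixed core set. Genes named for their level, their copies elsewhere, their pools or non-overlapping groups, and the ratios of Psme4 and Psmd14, were chosen after their values were seen. The counts of the targeted genes check nothing, since the labels do not name the floxed exons.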

Additional observations from a re-analysis of the deposited data

How the results depend on the processing

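In PB against GC B cells, 11 members passed in each genotype, beside 53.2% of all genes in controls and 51.6% in knockouts. Except with the block, the counts below are of members alone, without the calls over all genes beside them. A change in these counts need not be particular to the members. In knockouts the count was 7 with DESeq2 size factors in edgeR, 7 with immunoglobulin genes left out and 7 with only the groups compared in the fit; the cause was not tested. With the total count alone it was 45 in controls and 46 in knockouts, since that scale moves the median of all genes to -2.04 and -2.21, and Psme4 turned to -0.49 and -0.86. Leaving out each pool gave 4 to 13 in controls and 4 to 16 in knockouts; an arm of 1 pool is then assumed to vary like the other groups. With the replicate number as a block (1 term for pool 2) the count was 17 in each genotype, beside 60% and 58.5% of all genes, although PB and GC pools share only a number, whose deviations correlated at 0.247 and 0.303. Psmd10, Psmd4 and Psmd9 then passed in both genotypes, as did Psma1, Psmb7, Psmc6 and Psmf1. The block left the 5 other comparisons at 0 members. These 5 also stayed at 0 under every scaling, filter, tool and left-out pool run. The summed level, -0.32 in log2 TMM-scaled CPM, was -2.29 as a share of all counts and -0.68 without immunoglobulin genes. The Psmb10 share kept its direction under the other unit, the other denominator and each left-out pool. With 2 pools a group, single-gene differences within the standard errors were not detectable.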
